A study of Mus musculus with 4 samples.

Results

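The cells described here were mesenchymal cells of the developing mouse molar in which transcripts of Ebf2 and Meox2 were found together. A cell counted as a member when it held at least 2 Ebf2 UMIs, at least 1 Meox2 UMI, at least 5 UMIs of the fibrillar collagen genes Col1a1, Col1a2 and Col3a1 summed, and 0 UMIs of Epcam, Ptprc and Pecam1, the markers of epithelium, leukocytes and endothelium. A UMI, or unique molecular identifier, stands for 1 captured RNA molecule. These Ebf2+ Meox2+ cells numbered 2989 of the 22544 cells that met the same collagen and exclusion limits (the mesenchyme), of 42164 cells kept and of 56940 deposited barcodes. Ebf2 and Meox2 chose the cells, so their levels are given as a description, and Ccn3, the gene named with them as a marker, is treated in the same way.

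Ebf2 is a transcription factor of the early B-cell factor family, best known from brown fat precursors and from progenitors of bone and connective tissue. Meox2 is a homeobox transcription factor first described in somites, limb muscle precursors and vascular cells, and it is also found in the mesenchyme of the palate. Ccn3 is a secreted matrix-associated protein of the CCN family. Around a growing tooth the mesenchyme forms the dental papilla, the dental follicle, the bone of the jaw and the loose connective tissue between them, and each is usually told apart by its own transcription factors and matrix genes.

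The study profiled wild-type mice of the C57BL/6J strain (genotype WTB6) at E15.5 (written E15 in the sample labels) and P1 (P0/P1 in the design text), with the maxillary and the mandibular molar in separate single-cell RNA-seq libraries. Each of the 4 libraries was made from 6 pooled tooth organs, so there was 1 library for each combination of stage and jaw and no replicate of any, and all libraries came from untreated animals without a transgene. The deposited barcodes numbered 10885 for the E15.5 maxillary, 7947 for the E15.5 mandibular, 18707 for the P1 maxillary and 19401 for the P1 mandibular molar, with 109723360, 86659227, 128812956 and 139873101 UMIs in total. Values for the 4 libraries follow this order throughout, and a level is given in CPM, the UMIs of a gene per 1000000 UMIs of all cells of a class in 1 library.

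The P1 libraries shared 7131 barcodes, against 28 to 70 for any other pair of libraries, and among the shared barcodes the P1 maxillary count was higher by a median of 2.07 on the log2 scale. The shared barcodes were dropped from the P1 mandibular library only, and after that no member barcode occurred in more than 1 library. Of the 173 P1 maxillary members, 102 (59.0%) had such a shared barcode. These 102 cells stood apart from the other 71 in several genes. The summed level of 8 erythroid genes was 73.6 CPM in the shared and 6391 CPM in the unshared members, against 7928, 9546, 1429 and 5789 CPM in the members of the 4 libraries as a whole. The pericyte gene Rgs5 was at 710 CPM in the shared and 96.0 CPM in the unshared members, and the immediate early gene Atf3 at 110 and 27.9 CPM. Aldh1a2, by contrast, was at 160 CPM in the shared and 161 CPM in the unshared members. Results that rest on the P1 maxillary library are therefore given with and without the shared barcodes where the difference alters them.

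The share of Ebf2+ Meox2+ cells differed widely between the libraries. The rule picked 587 of 5592 mesenchymal cells in the E15.5 maxillary molar (10.5%, exact 95% binomial interval 9.71 to 11.3%), 1306 of 3189 in the E15.5 mandibular molar (41.0%, 39.2 to 42.7%), 173 of 8933 in the P1 maxillary molar (1.94%) and 923 of 4830 in the P1 mandibular molar (19.1%). The mandibular share was thus the higher at both stages, and the E15.5 share the higher in both jaws. Depth bears on such a count. The median member held 12280, 15352.5, 8060 and 11374 UMIs, and the median other mesenchymal cell 9927, 12603, 5245 and 11995 UMIs. When each cell was reduced at random to 2000 UMIs and the rule applied again, the shares were 2.01%, 8.46%, 0.770% and 5.21%, in the same order of libraries. In the P1 maxillary mesenchyme, 2.37% of the cells with a shared barcode (median 12312 UMIs) and 1.53% of those without (median 2677 UMIs) were members. With 1 library for each stage in each jaw these shares have no replicate, the intervals cover counting error only, and what the dissection included cannot be told apart from stage or jaw.

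**Figure D1:**
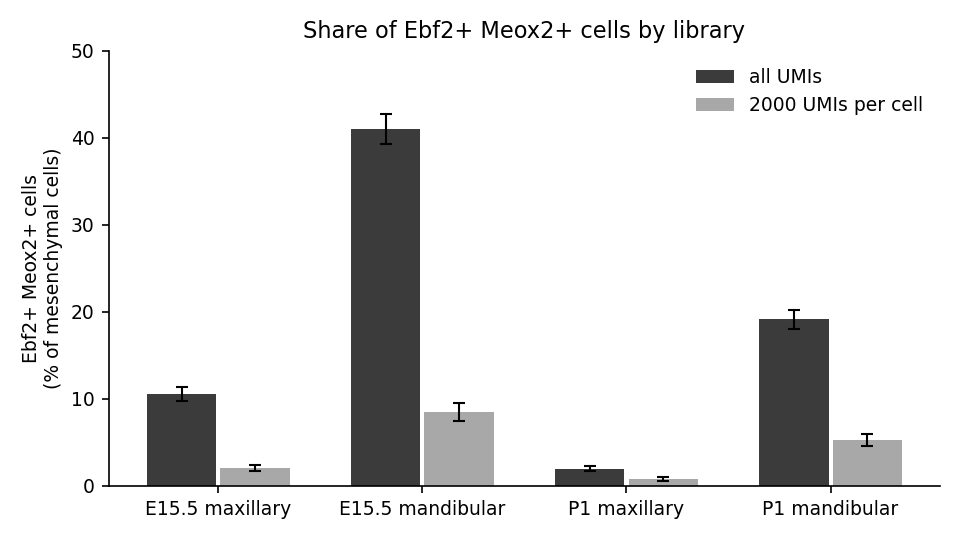
Share of Ebf2+ Meox2+ cells among mesenchymal cells (%, y axis) in each library, for all UMIs (dark bars) and after thinning each cell to 2000 UMIs (light bars), with exact 95% binomial intervals. The E15.5 mandibular bar is the highest (41.0%) and the P1 maxillary bar the lowest (1.94%), and the order of the 4 libraries is the same after thinning.

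The members of the P1 maxillary library lay closest to the limits of the rule. The median member held 7 Ebf2 and 3 Meox2 UMIs in the E15.5 maxillary, 9 and 5 in the E15.5 mandibular, 4 and 2 in the P1 maxillary and 8 and 3 in the P1 mandibular library. Of all 2989 members, 275 had exactly 2 Ebf2 UMIs, 572 had exactly 1 Meox2 UMI and 96 had both. In the P1 maxillary library these were 47, 70 and 30 of 173 members. Just outside lay 304 cells with 1 Ebf2 UMI and at least 1 Meox2 UMI, and 1006 cells with at least 2 Ebf2 UMIs and no Meox2 UMI, the last called Ebf2-only below. The limit on Epcam, Ptprc and Pecam1 kept out 293 cells that held a single UMI of these genes and 250 that held more, of which 350 in all failed through Pecam1 alone. A further 1604 mesenchymal cells had Meox2 and no Ebf2 UMI and are called Meox2-only.

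By the rule, Ebf2 and Meox2 were high in the members. Ebf2 was at 612, 677, 677 and 853 CPM in the members and at 37.5, 89.2, 17.6 and 38.7 CPM in the rest of the mesenchyme. Meox2 was at 327, 350, 347 and 334 CPM in the members and at 25.4, 35.4, 11.9 and 21.0 CPM in the rest. In cells with at least 2 Epcam UMIs, Ebf2 was at 0.768, 0.805, 105 and 0.860 CPM, so that 3 libraries gave a background near 1 CPM while the P1 maxillary epithelium was higher than that library's other mesenchyme. In cells with a Ptprc UMI Ebf2 was between 0.713 and 2.62 CPM, and Meox2 did not exceed 1.61 CPM in either background class.

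Ccn3 was higher in the members than in the rest of the mesenchyme in every library, at 92.5, 113, 60.5 and 238 CPM against 6.75, 21.0, 5.01 and 28.9 CPM, and was highest in the P1 mandibular molar. At least 1 Ccn3 UMI was found in 38.2, 50.5, 19.7 and 64.2% of the members, 1511 cells in all, against 2.32, 2.94, 2.04 and 2.21% of the Epcam+ cells, whose median depth was 13080, 14760.5, 6655.5 and 12967 UMIs. In Ebf2-only cells Ccn3 was at 35.3, 54.1, 98.1 and 279 CPM, higher than in the members in both P1 libraries and lower in both E15.5 libraries, and in Meox2-only cells it was at 4.46, 52.0, 17.3 and 17.3 CPM. At least 1 Ccn3 UMI was found in 13.3, 23.4, 9.96 and 52% of the Ebf2-only cells, a lower share than in the members of every library. Their median depth was 9070, 12158.5, 3752 and 9591.5 UMIs. By level, Ccn3 was thus high in the Ebf2+ cells of the P1 libraries with or without a Meox2 UMI. In the P1 maxillary library, however, most cells of both classes held no Ccn3 UMI.

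**Figure D2:**
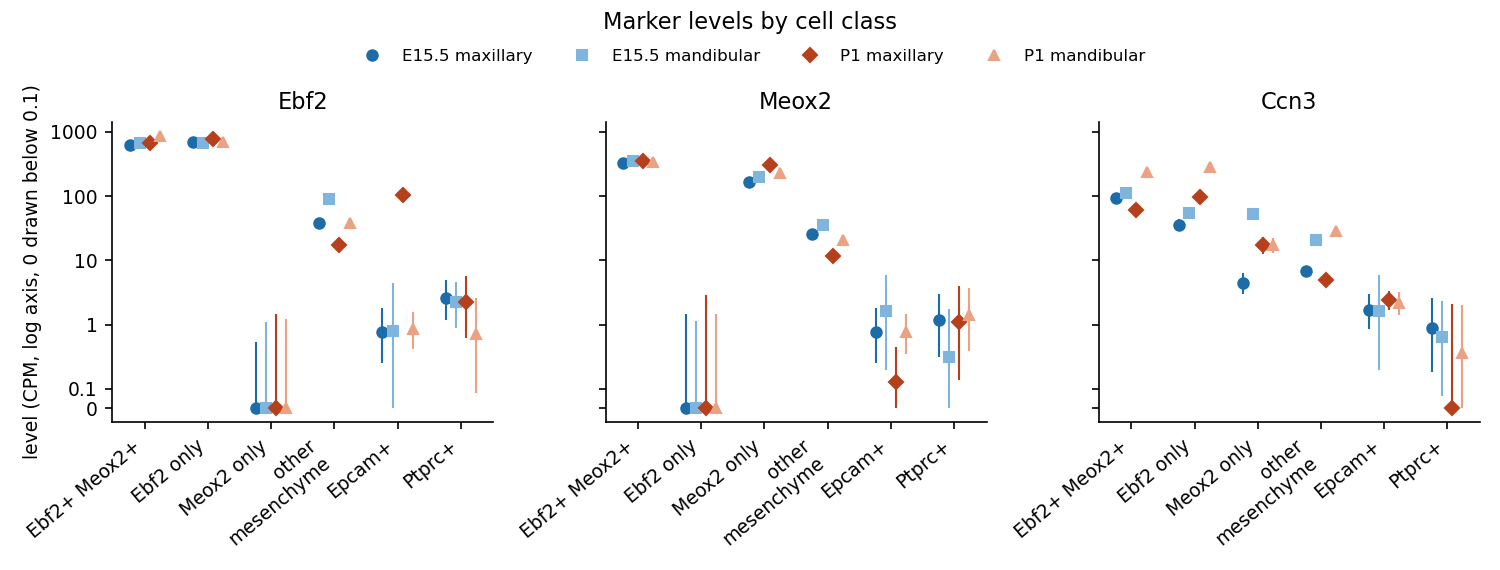
Level of Ebf2, Meox2 and Ccn3 (CPM, log y axis, with 0 drawn below 0.1) in the Ebf2+ Meox2+ cells, the Ebf2-only and Meox2-only cells, the rest of the mesenchyme and in cells with Epcam or Ptprc UMIs. Each symbol is 1 library with its 95% Poisson interval. Ebf2 in the Epcam+ cells of the P1 maxillary molar stands at 105 CPM, apart from the other 3 libraries.

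Detection of Meox2 beside Ebf2 was also described at equal depth. In cells thinned to 2000 UMIs, Meox2 was present in 35.3%, 43.1%, 22.9% and 40% of mesenchymal cells with at least 2 Ebf2 UMIs and in 6.17%, 14.8%, 4.17% and 6.10% of those with none. This is a description of the gates themselves and was not tested.

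General mesenchymal genes were present in the members. The limb and facial mesenchyme homeobox gene Prrx1 was at 577, 500, 655 and 446 CPM, the receptor gene Pdgfra at 169, 182, 189 and 241 CPM and the bHLH factor Twist1 at 108, 86.8, 106 and 65.3 CPM. Twist1 was at 286, 141, 141 and 79.7 CPM in the rest of the mesenchyme, and the difference did not pass the test (adjusted p = 0.0832, edgeR's quasi-likelihood test with Benjamini-Hochberg adjustment). The members thus carried the general mesenchymal genes.

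The members were spread over several clusters. Each library's mesenchyme was clustered on its own without the genes of the rule, which gave 32, 28, 32 and 29 clusters, and 80% of the members lay in 5, 5, 4 and 4 of them. These clusters held 17.7%, 43.6%, 9.78% and 25.9% of all mesenchymal cells. The richest cluster in the E15.5 maxillary molar held 219 members of 279 cells and was led by Rbp4, Grm8, Ntm and Nr3c2, and its E15.5 mandibular counterpart held 516 of 553 and was led by Grm8, Rbp4 and Angptl7. In the P1 mandibular molar the richest cluster held 457 of 541 cells and was led by Angptl7, Rbp4, Nrg1 and Entpd2, so Rbp4, the plasma retinol carrier, was among the leading genes in these 3 libraries. The P1 maxillary cluster with most members held 60 of 83 cells and was led by Mgat4e, Lvrn and Ripor2.

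The next largest groups of members in 3 libraries lay in clusters led by other genes. These were 132 of 250 cells of an E15.5 maxillary cluster led by Kank1, Prss35, Rgs6, Bace2 and Ripor2, 168 of 209 of an E15.5 mandibular cluster led by Rgs6 and Ripor2, and 194 of 371 of a P1 mandibular cluster led by Sntg1, Ccl11 and Cxcl1. Clusters led by cell division genes such as Hmmr, Nusap1, Birc5 and Cenpf held 55 of 181 and 7 of 305 cells in the E15.5 maxillary, 124 of 170 in the E15.5 mandibular, 0 of 360 and 15 of 303 in the P1 maxillary and 23 of 337 and 2 of 92 in the P1 mandibular molar. Clusters led by the tendon genes Tnmd and Scx held 46 of 185, 60 of 118 and 67 of 179 cells in the E15.5 maxillary, E15.5 mandibular and P1 mandibular molars. A further E15.5 mandibular cluster led by Scx, Retn and Tnmd held 24 of 30 cells, and a P1 maxillary cluster with Tnmd and Scx behind Foxp2, Foxd1 and Igf1 held 42 of 330. Clusters led by Ly6a held 146 of 260 cells in the E15.5 mandibular molar, where Vip, Tnxb, Mfap5 and the neuronal genes Prph and Stmn2 followed, and 84 of 161 in the P1 mandibular molar, where Pi16, Tek and Ly6c1 followed. Clusters led by Rgs5 held 35 of 93, 23 of 42, 24 of 158 and 16 of 66 cells in the 4 libraries. Some members lay in clusters led by genes of other cell types: 125 of 198 cells of an E15.5 mandibular cluster led by the muscle genes Acta1, Tnnc2 and Ckm, and 34 of 68 cells of a P1 mandibular cluster led by the neutrophil genes S100a9 and S100a8. Doublets were scored but not removed, and the highest scores marked 75, 79, 25 and 177 members. The number of cells marked was set by the number of barcodes in each library. Without the marked cells the members made up 10.0, 41.3, 1.94 and 18.5% of the mesenchyme, against 10.5, 41.0, 1.94 and 19.1% with them.

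Within the members, the share with Tnmd was lower among Rbp4+ than Rbp4- cells in all 4 libraries, and the share with Clec3b was higher in 3. Tnmd, the tendon membrane protein tenomodulin, was found in 2.86, 3.44, 0 and 4.79% of members with an Rbp4 UMI and in 14.3, 18.55, 3.92 and 20.0% of those without. Clec3b, which encodes tetranectin, was found in 61.9, 65.1, 40 and 94.6% of the Rbp4+ and 30.2, 39.4, 40.5 and 71.8% of the Rbp4- members. The P1 maxillary values rest on only 20 cells with Rbp4. In Epcam+ or Ptprc+ cells of any library Tnmd was found in at most 2.90% and Rbp4 in at most 4.65%, at median depths from 2948 to 14760.5 UMIs, so the Tnmd share among Rbp4+ members was near this background. The Rbp4+ members were deeper in 3 libraries, with medians of 13765.5, 16098, 6150.5 and 12303 UMIs against 11353, 14432, 8471 and 10998 UMIs. With each member thinned to 2000 UMIs, Clec3b was found in 26.0, 22.0, 22.2 and 81.1% of the Rbp4+ and 15.1, 19.1, 22.7 and 55.2% of the Rbp4- members, so the E15.5 mandibular shares were then close. Tnmd was then found in 1, 0.350, 0 and 0.901% of the Rbp4+ and 7.01, 8.43, 2.45 and 10.9% of the Rbp4- members. These shares are a description and were not tested.

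To see how the members differed from the rest of the mesenchyme, UMIs were summed per library and class and the 4 pairs of sums were compared within libraries (edgeR's quasi-likelihood test, Benjamini-Hochberg adjustment, adjusted p under 0.05). The genes of the rule, Ccn3 and the mitochondrial genes were left out. Of 16677 genes tested, 1009 (6.05%) were higher and 1230 (7.38%) lower in the Ebf2+ Meox2+ cells. Genes of retinoid handling, insulin-like growth factors and widespread fibroblasts were among the higher ones, and genes of bone, cartilage and dental papilla and inhibitors of Wnt signaling among the lower ones. Leaving out any 1 library gave 387 to 590 higher and 576 to 781 lower genes. Leaving the shared barcodes out of both P1 libraries gave 620 higher and 952 lower genes, and all 24 named genes that were still tested kept their call. By their marker genes, the rest of the mesenchyme contained bone, cartilage, glial and muscle cells, so a lower level in the members is relative to that mixture.

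Of the named genes, Mgat4e, a member of the MGAT4 glycosyltransferase family (chr1:134540941-134549682, minus strand, GRCm38), was at 150, 181, 177 and 49.96 CPM in the members and 25.9, 15.2, 5.16 and 2.01 CPM in the rest (log2 fold change 3.99 ± 0.46, adjusted p = 0.00775 by edgeR). With all barcodes the P1 mandibular level of the members was the lowest of the 4, and the P1 maxillary members were at 222 CPM with and 15.48 CPM without a shared barcode. An Mgat4e UMI was found in only 2.86, 4.16, 0 and 1.20% of members with an Rbp4 UMI. Among members without an Rbp4 UMI the shares were 4.24, 4.60, 4.58 and 1.36%, so the Mgat4e level of the members rested on few cells. Entpd2, an ectonucleotidase that breaks down extracellular ATP (chr2:25395874-25401321, plus strand), was at 39.9, 70.7, 73.8 and 135 CPM in the members and 5.599, 10.3, 2.86 and 8.18 CPM in the rest (log2 3.62 ± 0.37). Igfbp6, which binds insulin-like growth factors, was at 162, 129, 228 and 539 CPM against 19.1, 32.6, 11.5 and 67.6 CPM (log2 3.14 ± 0.36), and its P1 mandibular level was the highest. Clec3b was at 123, 147, 260 and 616 CPM against 19.7, 36.0, 15.7 and 72.4 CPM (log2 3.001 ± 0.33). Both Igfbp6 and Clec3b were thus highest in the P1 mandibular molar in members and in the rest alike, and the P1 maxillary level of Clec3b was 322 CPM with and 31.0 CPM without a shared barcode.

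The gene with the highest fold change, 4930438E09Rik, needs a separate remark. It lies on the minus strand at chr14:67332042-67397742, wholly inside Ebf2 at chr14:67233292-67430918 on the plus strand (GRCm38). It was at 44.2, 54.1, 41.9 and 63.7 CPM in the members and 2.90, 7.84, 1.46 and 2.27 CPM in the rest, but because it overlaps a gene that chose the cells its value is uncertain and is not counted as support.

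Among the highest were the retinoid genes Aldh1a2 and Rbp4. Aldh1a2, which encodes the main embryonic enzyme of retinoic acid synthesis (chr9:71215789-71296243, plus strand), was at 165, 146, 160 and 165 CPM in the members and 40.4, 30.6, 13.0 and 15.9 CPM in the rest (log2 2.86 ± 0.31, adjusted p = 0.00676 by edgeR). Its level in the members varied little between libraries. At 2000 UMIs per cell, Aldh1a2 was found in 26.5, 23.9, 24.4 and 27.0% of members and 6.02, 6.50, 3.45 and 2.80% of the rest. Rbp4 (chr19:38116629-38125281, minus strand) was at 132, 186, 23.9 and 74.0 CPM against 13.4, 29.2, 2.82 and 4.0 CPM (log2 3.38 ± 0.28), lowest in the P1 maxillary members. Of 15 retinoid genes tested, 3 were higher (Rbp4, Aldh1a2 and the receptor Rara) and 1 lower, the retinoic acid-degrading enzyme Cyp26b1 (log2 -2.08 ± 0.21), with a median of 0.15 against -0.04 for all genes. The list summed to 1051, 1168, 807 and 841 CPM in the members and 693, 621, 827 and 807 CPM in the rest. The P1 sums were thus close to those of the rest, and were 1053 and 772 CPM in the unshared P1 maxillary members and rest.

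The insulin-like growth factor genes showed the largest share of higher genes among the signaling lists, 6 of 11 tested, with 1 lower and a median of 1.27 on the log2 scale against -0.04 for all genes. The growth factor Igf1 was at 1087, 1122, 1033 and 1325 CPM in the members and 276, 382, 138 and 177 CPM in the rest (log2 2.39 ± 0.27, adjusted p = 0.00703 by edgeR). It was found in 75.4, 78.5, 69.8 and 80.02% of members and 28.7, 32.8, 21.2 and 18.3% of the rest at 2000 UMIs per cell. Igf2 (1.53), the clearance receptor Igf2r (1.27) and the binding proteins Igfbp3 (1.39) and Igfbp4 (0.65) were also higher on the log2 scale, and Igfbp2 was lower (-0.99). The members thus carried more of both growth factors and of 3 of the binding proteins tested.

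Genes of widespread fibroblasts were higher as well, 7 of 12 tested and 0 lower (median 1.64 on the log2 scale, and 0 lower at an unadjusted p under 0.05 and 0 by DESeq2). These were Entpd2, Clec3b, Pi16 (2.34), the surface peptidase Dpp4 (2.13), Ebf1, Gfpt2 (1.67) and Gsn (1.15), and the list was drawn with results of these data known. Among 11 adipocyte genes, the preadipocyte gene Dlk1 was at 3225, 3768, 2115 and 4490 CPM against 829, 1279, 329 and 459 CPM (log2 2.43 ± 0.30), the lipase Lpl was also higher (2.27), and Prdm16, a partner of Ebf2 in brown fat, was lower (-1.87). The remaining genes of the ranking were the transporter Abca8a, the peptidase Lvrn, the collagen Col5a3, the hyaluronan-binding Itih5, the microfibril gene Mfap5, the transmembrane gene Tmeff2 and the tubulin-binding Tppp3, with log2 fold changes between 2.44 and 2.83. Each of these 7 was higher in the members in all 4 libraries, which was a condition of being named.

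**Figure D3:**
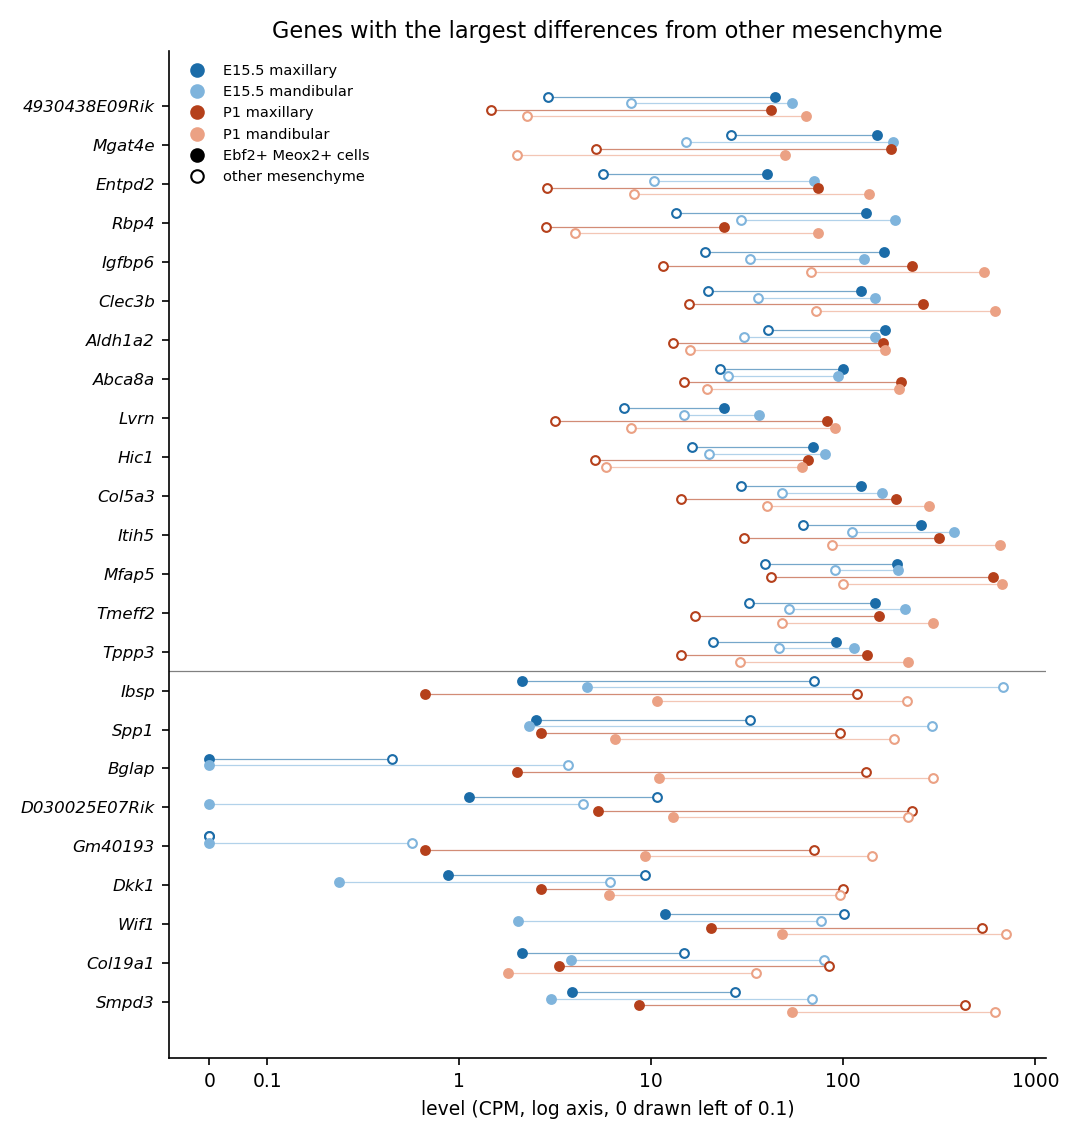
Level (CPM, log x axis, with 0 drawn left of 0.1) of the 15 genes highest and 9 of the 10 genes lowest in Ebf2+ Meox2+ cells relative to the rest of the mesenchyme. Filled symbols are the Ebf2+ Meox2+ cells and open symbols the rest, 1 colour per library. Every filled symbol above the grey line lies to the right of its open partner, as the choice of named genes required. Bglap and Gm40193 are at 0 in the E15.5 members.

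Hic1, a zinc-finger transcriptional repressor known from quiescent mesenchymal progenitors (chr11:75164565-75169519, minus strand), was at 70.0, 80.4, 65.8 and 60.8 CPM in the members and 16.4, 19.9, 5.10 and 5.79 CPM in the rest (log2 2.82 ± 0.34, adjusted p = 0.00826 by edgeR). Its level in the members was close in all libraries. As the members were chosen by an EBF family factor, promoters (250 bases before to 50 after each start, RefSeq, GRCm38.p6) were searched for the EBF motif TCCC-NN-GGGA, which reads the same on both strands. Of the 15 named higher genes 10 had 12 promoters in the table, and 1 of these held the motif, that of Hic1 at chr11:75168103-75168402 on the minus strand. It is shown 5′ to 3′ with the motif in capitals, which starts 97 bases before that promoter's own RefSeq start, an alternative start that lies inside the gene span given above. The other Hic1 promoter in the table, at chr11:75170206-75170505, held 0 (8 of the named lower genes had 9 promoters, 0 with the motif):
Hic1: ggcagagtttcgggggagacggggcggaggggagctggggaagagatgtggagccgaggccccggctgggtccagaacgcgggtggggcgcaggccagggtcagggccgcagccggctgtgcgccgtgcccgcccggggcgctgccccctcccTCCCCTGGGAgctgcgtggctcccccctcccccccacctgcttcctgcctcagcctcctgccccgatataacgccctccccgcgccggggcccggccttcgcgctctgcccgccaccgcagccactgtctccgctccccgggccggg
The motif was in 21 of 1021 promoters of the genes called higher (2.06%), in 20 of 1289 of those called lower (1.55%), in 168 of 15691 of all genes tested (1.07%) and in 297 of 32851 promoters in the table (0.904%). No promoter of Meox2 in the table held it, and such matches describe letters in a window and were not tested.

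Among relatives of the defining factors, Meox1 was higher in the members, at 38.8, 41.7, 26.6 and 39.99 CPM against 6.21, 8.18, 2.67 and 6.71 CPM (log2 2.74 ± 0.17, adjusted p = 0.0032 by edgeR). Ebf1 was at 1151, 1131, 1618 and 1314 CPM against 530, 673, 209 and 287 CPM (log2 1.81 ± 0.38) and Ebf3 at 147, 167, 116 and 159 CPM against 37.3, 94.1, 19.6 and 30.3 CPM (log2 1.998 ± 0.30). Ebf4 was lower (-0.93), so of these 4 relatives 3 were higher and 1 lower. Zfp423 and Zfp521, zinc-finger genes known to interact with EBF factors and listed with them, were not called (0.38 and -0.74). Paralogs of such a family can share reads, which the deposited counts cannot show.

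More patterning factors of the face were called lower than higher. Of 32 transcription factors of palate and oral mesenchyme, 10 were lower and 5 higher (median -0.39). The higher genes were Osr1 (1.56), a zinc-finger factor of the palate, Shox2 (1.30), Foxd1 (1.25) and the nuclear receptors Nr2f2 (1.17) and Nr2f1 (1.09). Among the lower genes were Msx1 (-1.59), Msx2 (-3.61), Pax9 (-1.83), Lhx6 (-2.41), Tbx22 (-2.70), Foxf1 (-3.03), Foxf2 (-2.90), Twist2 and Prrx2, among which Msx1 and Pax9 are required for molar development. Of 13 jaw identity factors tested, 8 were lower, among them Dlx1 (-1.08), Dlx2 (-1.62), Gsc (-1.10) and Alx1 (-2.54), and the median of the list was -1.62.

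Genes of mineralised tissue, cartilage and the dental papilla were called lower in the members, while those of the dental follicle were called in both directions. Ibsp, the bone sialoprotein, was at 2.13, 4.63, 0.664 and 10.8 CPM in the members and 70.5, 676, 118 and 216 CPM in the rest (log2 -5.60 ± 0.59, adjusted p = 0.00646 by edgeR). Bglap, which encodes osteocalcin, had no UMI in the members of either E15.5 library, where 3 UMIs would be 0.375 and 0.142 CPM, and was at 1.99 and 11.0 CPM in the P1 members. In the rest of the mesenchyme Bglap was at 0.446, 3.67, 132 and 292 CPM, above the members in the other 3 libraries, while in the E15.5 maxillary molar no difference was detectable at this depth. Bglap and Bglap2 are close copies that can share reads. Of 10 osteoblast genes tested 8 were lower (median -3.66), of 12 chondrocyte genes all 12 were lower (median -2.68) and of 8 dental papilla genes 5 were lower (median -1.16). Of 11 dental follicle genes 4 were lower, among them Tnn (-3.50), Spon1 (-1.50) and Pthlh (-1.17), and 2 were higher, Aldh1a2 and Mfap5 (median 0.06). That list, led by Postn or Igfbp5, summed to 2218, 1985, 3579 and 4071 CPM in the members and 2015, 1911, 1394 and 1360 CPM in the rest, and to 2183 and 2327 CPM in the unshared P1 maxillary members and rest. Other named lower genes were Spp1, the sphingomyelinase Smpd3, Col19a1 and the uncharacterised D030025E07Rik and Gm40193. The bone master regulator Runx2 was at 116, 33.3, 39.9 and 45.5 CPM in the members, highest in the E15.5 maxillary library, and 588, 526, 349 and 331 CPM in the rest.

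Of the Wnt pathway genes, the subject of the study, more were called lower than higher in each of 4 lists, and many were not called. The ligand Wnt10a was at 0.751, 0.189, 0 and 3.32 CPM in the members and 4.86, 3.52, 31.1 and 39.0 CPM in the rest (log2 -3.69 ± 0.43). The secreted inhibitor Dkk1 was at 0.876, 0.236, 2.66 and 6.02 CPM against 9.28, 6.13, 99.7 and 96.1 CPM (log2 -4.14 ± 0.26, adjusted p = 0.0032 by edgeR). Sost had no UMI in the members of 3 libraries and 2 UMIs in the P1 mandibular members, and was at 0.205, 0.0379, 0.0851 and 1.29 CPM in the rest. In the P1 mandibular molar the members were at 0.1797 CPM, with a 95% Poisson interval of 0.0218 to 0.649 CPM that lies below the rest, while in the other 3 libraries no difference was detectable at this depth. The Wnt-binding inhibitor Wif1 was at 11.8, 2.03, 20.6 and 48.2 CPM in the members and 101, 76.4, 531 and 704 CPM in the rest (log2 -4.10 ± 0.37), and like Dkk1 it was lower in the members of every library.

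By role, 6 of 17 Wnt ligands and R-spondins were lower and 1 higher, Wnt2 (1.53), with a median of -1.04. Of 15 inhibitors 7 were lower (median -1.19), of 19 receptors 4 were lower and 3 higher (Fzd8 at 1.85, Fzd5 and Lrp6), and of 11 targets and nuclear factors 5 were lower and 1 higher (median -1.04). Axin2, a feedback target of the pathway, was at 7.26, 4.96, 7.31 and 7.10 CPM in the members and 37.7, 16.5, 21.2 and 18.2 CPM in the rest (log2 -1.71 ± 0.20), and the nuclear factor Lef1 at 11.4, 1.65, 1.99 and 7.998 against 89.3, 36.0, 56.0 and 60.0 CPM (log2 -3.44 ± 0.34). Higher instead was Tcf7l2, another nuclear partner of beta-catenin, at 591, 716, 420 and 676 CPM in the members and 274, 233, 235 and 232 CPM in the rest (log2 1.34 ± 0.16). The members thus held less Lef1, Tcf7 and Axin2 and more Tcf7l2 than the rest. The summed level of the 11 targets and nuclear factors was 1122, 1228, 995 and 1215 CPM in the members, with Tcf7l2 the most abundant, and 998, 868, 1088 and 1078 CPM in the rest, so the sum was not lower in 3 of the 4 libraries. In the P1 maxillary library without the shared barcodes it was 963 CPM in the members and 945 CPM in the rest, and so not lower there either.

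FGF, Hedgehog, BMP and TGF-beta genes were called in both directions. Among 17 FGF genes, the feedback inhibitors Spry1 (1.47), Spry2 (1.36) and Spry4 (1.22) and the ligand Fgf1 (1.42) were higher, and 6 genes were lower, among them the receptors Fgfr1 (-0.54), Fgfr2 (-1.15) and Fgfr3 (-3.13). Of 11 Hedgehog genes 2 were lower, the receptor and target Ptch1 (-2.11) and Hhip (-0.77), and 2 were higher, among them the coreceptor Cdon (1.25). Of 30 BMP and TGF-beta genes 4 were higher and 5 lower, with Bmpr1b (1.18) the highest and the antagonist Nog (-2.22) the lowest of those called. Of 12 Notch genes 2 were lower, Hey1 (-1.86) and Dll1.

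Matrix and guidance genes separated the members further. The fibril-associated collagen Col14a1 (1.62), the type VI collagens Col6a1 (1.56), Col6a2 (1.36) and Col6a3 (1.09), and Col5a1 and Col5a2 were higher, and 5 collagens were lower, of 18 tested. Of 14 proteoglycans and related matrix genes, Dcn was higher (0.88) and Omd, Tnc and Fmod were lower (-3.55, -2.16 and -0.88). Of 23 axon guidance genes 10 were lower, such as Sema3a (-2.21) and Unc5c (-2.21), and 3 were higher, such as the semaphorin receptor Nrp1 (1.81) and its ligand Sema3c (1.46).

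Markers of other cell types were measured beside these results. Of 7 endothelial genes tested, Cdh5 was higher, at 9.26, 6.38, 19.3 and 7.998 CPM against 1.60, 0.947, 0.666 and 1.79 CPM, as was Emcn, at 13.4, 4.11, 13.3 and 3.77 CPM against 1.90, 1.78, 2.61 and 1.73 CPM, with Pecam1 at 0 by the rule. Of 12 pericyte genes only Cspg4 passed the test (1.21), and the list summed to 621, 363, 1950 and 393 CPM in the members and 410, 647, 446 and 439 CPM in the rest, so that the P1 maxillary members stood apart, at 2293 CPM in the shared and 694 CPM in the unshared barcodes. The 8 erythroid genes, led by Hbb-bs, summed to 13340, 17499, 2780 and 5652 CPM in the rest, and the 10 muscle genes to 93.5, 152, 47.2 and 542 CPM in the members, led by Acta1 at 367 CPM in the P1 mandibular molar. The muscle factors Myod1, Myf5 and Pax7 were lower in the members than in the rest, and with Myog and Myh3 they had no UMI in the P1 maxillary members. Of 11 stress genes, 16 S phase genes and 16 G2/M genes none was called by edgeR, with 1, 1 and 0 higher at an unadjusted p under 0.05 and 0, 1 and 0 higher by DESeq2. The part of these markers in the differences was not tested.

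The Ebf2-only cells, which had Ebf2 but no Meox2 UMI, were the neighbouring class on the Meox2 side of the rule. Of 12095 genes tested, 223 (1.84%) were higher and 356 (2.94%) lower in the members, and these counts depended on the library block: without it the same test called 0 in either direction, with 502 higher and 681 lower at an unadjusted p under 0.05, while DESeq2 with the block called 214 and 384. Without the E15.5 mandibular library 23 were higher and 60 lower, without the E15.5 maxillary library 37 and 109, and without the P1 mandibular library 49 and 157. A Meox2 count of 0 can also be a missed transcript, and the Ebf2-only cells held a median of 8740 UMIs. This comparison and the next share the member cells with the first and are set side by side only.

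Tendon genes had the highest share of higher genes of any list here. Tnmd was at 98.1, 90.2, 33.2 and 294 CPM in the members and 23.0, 28.9, 5.41 and 46.9 CPM in the Ebf2-only cells (log2 2.24 ± 0.17, adjusted p = 0.00318 by edgeR). The tendon transcription factor Scx was higher by 2.04 ± 0.17 and the matrix gene Thbs4 by 1.14 ± 0.14 on the log2 scale, so 3 of 7 tendon genes were higher (list median 1.14, against 0.01 for all genes). Against the rest of the mesenchyme, Tnmd and Scx had not passed the test (log2 0.71 ± 0.28 and 1.14 ± 0.30). Meox1 was again higher (1.76), while Ebf3 was lower (-0.67). Rbp4 (1.39), Entpd2 (1.25), Ripor2 (1.16) and Rgs6 (1.15) completed the 6 highest named genes. Entpd2, Ripor2 and Rgs6 lost their call when either E15.5 library or the P1 mandibular library was left out (adjusted p between 0.0581 and 0.137 by edgeR), and Ripor2 also at 2000 UMIs per cell and without the cells of highest doublet score.

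Lower in the members than in Ebf2-only cells were genes of the bone lineage. Runx2 was at 250, 310, 196 and 129 CPM in the Ebf2-only cells (log2 -1.95 ± 0.32), above the members in every library. Spp1 (-3.74) was also lower, as were Pdzrn4, Hpse2 and Cntn6 (between -2.40 and -1.87). Calls were lost without 1 library for Hpse2 (either E15.5 library or P1 mandibular), Pdzrn4 (either E15.5 library), Spp1 (E15.5 mandibular or P1 mandibular) and Runx2 (P1 mandibular), with adjusted p between 0.0531 and 0.0880 by edgeR. In all, 4 of 7 osteoblast genes and 4 of 12 Wnt inhibitors, such as Sfrp2 (-1.22) and Frzb (-1.79), were lower. Lists described against the rest of the mesenchyme gave other counts here. Of 11 insulin-like growth factor genes 1 was higher, Igfbp6 (1.11), and 3 lower (median 0.05), and of 12 fibroblast genes 1 was higher, Entpd2, and 2 lower, Dpt and Sfrp4 (median -0.07). Of 10 Wnt targets and nuclear factors 2 were higher, Tcf7l2 (0.41) and Ccnd1 (0.48), and 0 lower by edgeR or DESeq2, with 3 lower at an unadjusted p under 0.05. Of 6 muscle genes tested, Acta1 (0.89) and Tnnt3 (0.79) were higher in the members, and the part of muscle RNA in this comparison was not tested.

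The Meox2-only cells were the neighbouring class on the Ebf2 side. Of 13232 genes tested, 631 (4.77%) were higher and 763 (5.77%) lower in the members, with 285 and 353 left without the E15.5 maxillary and 351 and 438 without the E15.5 mandibular library. Aldh1a2 was at 24.5, 17.5, 32.3 and 17.6 CPM in the Meox2-only cells (log2 2.84 ± 0.16, adjusted p = 0.000666 by edgeR), far below the members in every library. Entpd2 (3.69), Mgat4e (4.07) and Lvrn (2.70) were again among the highest, beside 4930438E09Rik with the limit given above. The Mgat4e value again rests on the few members with a UMI of that gene. The metabotropic glutamate receptor gene Grm8 was at 88.0, 112, 13.3 and 56.0 CPM in the members and 4.89, 7.73, 6.30 and 4.89 CPM in the Meox2-only cells (log2 3.53 ± 0.40), with the smallest gap in the P1 maxillary molar.

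By list, 7 of 11 insulin-like growth factor genes, 4 of 13 retinoid genes, 5 of 12 fibroblast genes and 5 of 11 pericyte genes were higher than in Meox2-only cells. Lower were 1 insulin-like growth factor gene, Igfbp2 (-1.24), the retinoid genes Cyp26b1 (-3.01) and Rarg (-0.51), and of 11 stress genes the heat shock genes Hspa1a (-1.19) and Hspa1b (-1.08), near-identical copies that can share reads. The pericyte genes were Rgs5 (1.65), Des, Abcc9, Mcam and Cspg4, whose summed levels in the members are given above. Also lower were 11 of 13 Wnt inhibitors, with Wif1 at -3.03, 14 of 31 palate and oral factors, and the tendon genes Mkx (-2.36) and Fmod (-2.77) of 7 tested. Tnmd was at 163, 362, 28.4 and 3298 CPM in the Meox2-only cells, with the P1 mandibular library far above the others, and its difference did not pass the test (log2 -1.65 ± 0.56). The other named lower genes were the matrix gene Tnn (-4.11), Itgbl1 (-3.21), Ibsp and the cartilage genes Col2a1 and Col11a2.

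**Figure D4:**
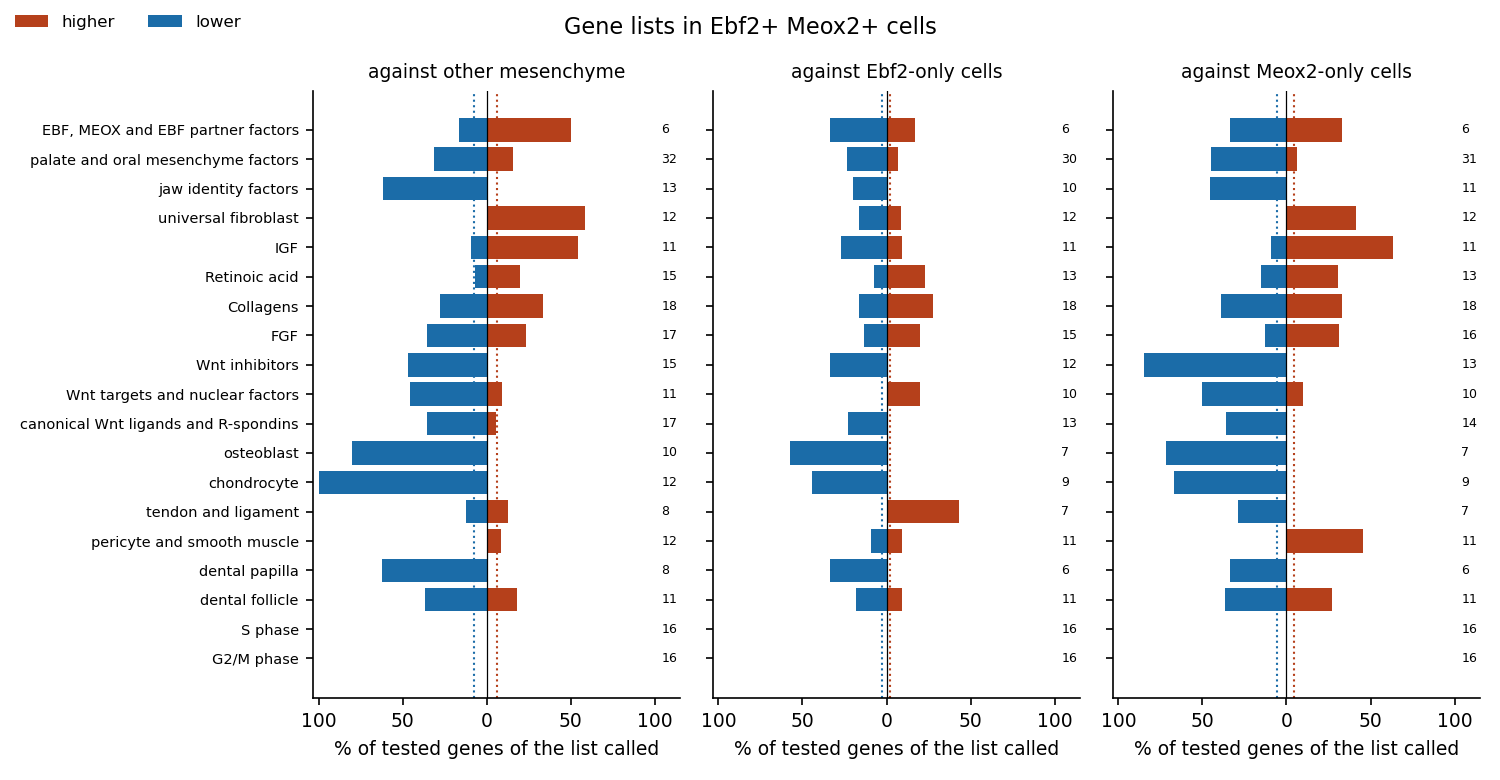
Percentage of the tested genes of each list that were higher (right, red) or lower (left, blue) in Ebf2+ Meox2+ cells than in 3 comparison classes (x axis, %), with the number of genes tested at the right of each bar. Dotted lines mark the percentage called over all genes. Bone and cartilage genes extend to the left in all 3 panels, insulin-like growth factor genes and fibroblast genes to the right mainly in the first and last, and tendon genes to the right in the middle panel.

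Between E15.5 and P1 the members were compared within each jaw as ratios of levels, and no test was made between the single libraries. Of 3499 genes with at least 50 CPM at either stage in both jaws, 39 (1.11%) were at least 2-fold higher at P1 in both jaws and 18 (0.514%) at least 2-fold lower. In the rest of the mesenchyme the same limits gave 225 (6.09%) and 79 (2.14%) of 3696 genes. When the shared barcodes were left out of both P1 libraries, 6 genes were higher and 7 lower in the members.

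The 8 genes named as higher at P1 included matrix genes and immediate early genes. The microfibril gene Mfap5 was at 190, 193, 599 and 674 CPM, with log2 ratios of P1 to E15.5 of 1.66 and 1.80 in the maxillary and mandibular molar, and the tenascin gene Tnxb had ratios of 1.66 and 2.50. Igfbp7 (2.01 and 1.77), the metallothionein Mt1 (1.74 and 2.44) and Csmd1 (2.40 and 2.36) were also higher, but the smaller Csmd1 ratio was -0.40 without the cells of highest doublet score. Zfp36, Atf3 and Gadd45b, which are induced rapidly by stress or dissociation, had log2 ratios of 2.33 and 1.96, 1.64 and 2.37 and 1.59 and 1.55. The summed level of 11 stress genes, led by Fos, was 2086, 1994, 4726 and 5872 CPM in the members and 3521, 2610, 3660 and 2812 CPM in the rest, so the members of the P1 libraries were high and those of the E15.5 libraries low. In the P1 maxillary members this list was at 5357 CPM in the shared and 2418 CPM in the unshared barcodes. Without the shared barcodes, Zfp36 was at 24.8, Atf3 at 27.9 and Gadd45b at 40.3 CPM in the P1 maxillary members, at or below the E15.5 levels of 31.7, 29.7 and 66.2 CPM. Mfap5 was then at 201 CPM, near its E15.5 level, so for the maxillary molar these ratios rested on the shared barcodes, and the cause was not tested.

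Among the lower genes, Igfbp2 was at 121, 78.0, 43.2 and 26.6 CPM in the members (log2 ratios -1.49 and -1.55) and the mineralocorticoid receptor gene Nr3c2 at 90.2, 139, 23.9 and 19.3 CPM (-1.92 and -2.85). Rbp4 (-2.46 and -1.33), the protocadherin Pcdh15 (-2.76 and -1.66), Gas2 (-2.26 and -1.17) and Gm47283 (-1.62 and -2.12) were lower too. In the unshared P1 maxillary members, Nr3c2 was at 92.9 CPM and Igfbp2 at 102 CPM, again close to the E15.5 maxillary levels. The retinoic acid-binding protein gene Crabp1 was at 228, 302, 42.5 and 135 CPM in the members (log2 ratios -2.42 and -1.17), and in the rest of the mesenchyme its ratios were 0.55 and 0.82. Shisa9 showed the same opposition, with ratios of -1.44 and -1.32 in the members and 3.02 and 2.15 in the rest. Both genes were thus lower at P1 in the members of either jaw and higher at P1 in the rest. Without the shared barcodes, Crabp1 was at 155 CPM in the P1 maxillary members and 126 CPM in the rest, against 228 and 134 CPM at E15.5, so for Crabp1 the opposition in the maxillary molar rested on the shared barcodes. Shisa9 was at 6.19 CPM, from 2 UMIs, in the unshared members and 22.5 CPM in the unshared rest.

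**Figure D5:**
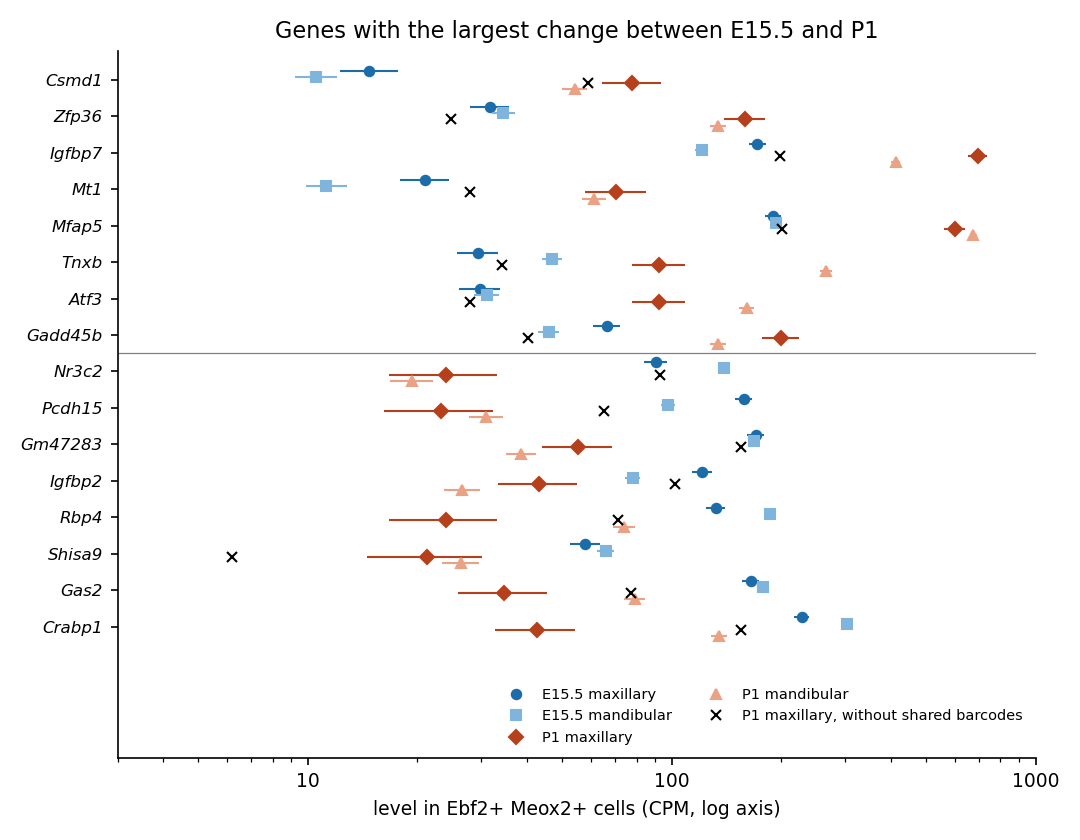
Level (CPM, log x axis) in Ebf2+ Meox2+ cells of the 8 genes with the largest ratios upward (above the line) and downward (below) from E15.5 to P1, 1 symbol per library with 95% Poisson intervals. Crosses give the P1 maxillary members without shared barcodes. For Zfp36, Atf3, Mfap5 and Nr3c2 the crosses lie near the E15.5 symbols.

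With the shared barcodes kept in the P1 maxillary library, proliferation genes summed to less at P1 than at E15.5 in both jaws. This held in the members and in the rest alike. The 16 G2/M genes summed to 1181, 1005, 962 and 379 CPM in the members and 1092, 1195, 777 and 844 CPM in the rest, and the 16 S phase genes to 933, 886, 579 and 399 CPM in the members and 829, 906, 502 and 507 CPM in the rest. The P1 mandibular members were the lowest in both lists, and the P1 maxillary members were at 762 CPM of G2/M genes in the shared and 1694 CPM in the unshared barcodes. Without the shared barcodes, the G2/M sum of the maxillary members was thus higher at P1 than at E15.5 (1181 CPM). The S phase sum of the unshared members, 761.8 CPM, was still below the 933 CPM at E15.5.

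Between the jaws, 14 of 3273 genes (0.428%) were at least 2-fold higher in the maxillary members at both stages and 0 at least 2-fold lower, against 18 (0.547%) and 1 (0.0304%) of 3292 in the rest of the mesenchyme. Without the cells of highest doublet score 8 genes were higher, and again no test was made. The synaptic adhesion gene Lrrtm4 had log2 ratios of maxillary to mandibular of 3.35 and 3.15 at E15.5 and P1, at 87.1, 8.56, 209 and 23.5 CPM, and the transcription cofactor Dach1 of 2.22 and 2.28. Rgs5 (1.89 and 3.13), the adhesion gene Alcam (1.56 and 1.52), C1qtnf3 (1.71 and 1.33) and Msx1 (1.70 and 1.32) followed. When the shared barcodes were left out of both P1 libraries 13 genes were 2-fold higher, but the smaller of the ratios of Lrrtm4, Rgs5, C1qtnf3 and Msx1 was then 0.16, 0.56, 0.68 and 0.59, while Dach1 (2.08) and Alcam (1.56) kept theirs. In the P1 maxillary members Lrrtm4 was at 259 CPM in the shared and 24.8 CPM in the unshared barcodes, against 23.5 CPM in the P1 mandibular members. Pax9, a factor of tooth and palate, was at 42.4, 7.80, 75.7 and 11.8 CPM in the members, higher in the maxillary molar at both stages.

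Higher in the mandibular members were Entpd2 (-0.82 and -0.88), the bicarbonate transporter Slc4a4 (-0.78 and -1.30), Dchs2 (-0.72 and -2.12), the interferon-inducible Ifi27l2a (-0.72 and -2.60), Ly6e (-0.68 and -1.15) and AW551984 (-0.59 and -0.89), none of them 2-fold at both stages. Hand2, which specifies the mandibular part of the first arch, was at 0.501, 13.3, 2.66 and 6.11 CPM in the members and 1.30, 21.5, 0.142 and 9.43 CPM in the rest. Hand2 was low in the maxillary members at E15.5, while the P1 maxillary members held 4 Hand2 UMIs, all of them in unshared barcodes (12.4 CPM). Only 4 UMIs lie behind that value, so it has little precision.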

How the data were processed

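The authors aligned 3′ single-cell reads to mm10 with Cell Ranger (7.0.1 in the file headers) and deposited whole-number UMI counts per gene and barcode (32285 genes), with no normalization. Whether intronic reads were counted is not given in the sources used here. The authors removed doublets with scDblFinder in their own analysis, and each deposited library holds more barcodes than any sample kept after that filtering, so the files precede it. Barcodes with at least 1000 UMIs and under 10% mitochondrial UMIs were kept, and P1 mandibular barcodes also found in the P1 maxillary library were dropped. No deposited cell annotation was used, and doublets were kept in the main analysis.

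Counts were summed per library and class, and members were compared with the rest, with Ebf2-only and with Meox2-only mesenchyme by edgeR 4.0.16 (R 4.3.3; TMM, filterByExpr, quasi-likelihood test, library as a block, 4 libraries, 8 sums, 3 residual degrees of freedom), with Benjamini-Hochberg adjusted p under 0.05. The 4 libraries, not cells, were the replicates, and nothing was tested between stages or jaws. On counts simulated for the members against the rest, 96% of 2-fold changes were recovered. The changed genes were all above 50 CPM, with the same fold in all 4 libraries and a spread taken from the fitted trend. Changes in genes of lower level, or changes that vary between libraries, were not simulated. Clusters came from scanpy 1.11.5 and leidenalg 0.10.2 (resolution 1.0, 2000 variable genes, 40 components, 15 neighbours, seed 0). Shares have exact binomial intervals and levels Poisson intervals, both for counting error only.

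Named genes were the 15 highest and 10 lowest of those past the threshold, in 1 direction in all libraries and with 50 CPM or more in whichever class was higher (6 each way for the neighbouring classes, and 8 by stage and 6 by jaw ranked by the smaller ratio), without ribosomal protein genes, plus genes of 35 lists. Of these, 3 genes are not reported here. The members and lists were chosen with earlier results of these data known. Alternatives were DESeq2 1.42.0, other filters, depths and gates, each library left out, and removal of shared barcodes or of cells with the highest Scrublet scores.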

Additional observations from a re-analysis of the deposited data

Results flagged for a closer look

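Several genes differed between members and the rest of the mesenchyme in opposite directions at the 2 stages or in the 2 jaws: both libraries of one stage or jaw lay above 0 and both of the other below. None of these differences was tested. Each value is the difference of the mean log2 ratio of members to the rest, P1 minus E15.5 or maxillary minus mandibular.

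By stage, the difference was upward for Aspn (2.33), the dermatopontin gene Dpt (2.24), Sdc2 (1.01) and Bgn (0.946). Aspn had log2 ratios (members to the rest, maxillary before mandibular) of -1.09 and -0.68 at E15.5 and 1.01 and 1.88 at P1. The immediate early and stress genes Fos (1.65), Gadd45b (1.61), Jun (1.60) and Egr1 (1.00) also turned from lower in the members at E15.5 to higher at P1. Downward went Shisa9 (-3.97), the retinoid genes Crabp1 (-2.48) and Rarb (-1.24), and the proteoglycan gene Vcan (-1.36). Crabp1 stood at 0.76 and 1.19 and then -2.20 and -0.80 on the same scale.

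By jaw, the smooth muscle actin gene Acta2 (2.30) and the proliferation genes Top2a (0.976) and Mki67 (0.912) were higher than in the rest in maxillary members and lower in mandibular members, and Tgfb2 (-0.466) was the reverse.

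Several of these turns rested on the shared barcodes of the P1 maxillary library. Without them the P1 maxillary log2 ratio of members to the rest was -1.04 for Aspn, -0.765 for Bgn, -0.376 for Sdc2, -1.09 for Fos, -0.932 for Gadd45b, -0.0333 for Jun and -0.453 for Egr1, so these 7 were no longer higher there. It was 0.292 for Crabp1 and 0.126 for Vcan, no longer lower. The stress list stood at 2418 CPM in the unshared members and 3914 CPM in the unshared rest. The difference between jaws in Acta2 was then 1.26, while Top2a (1.31), Mki67 (1.14) and Tgfb2 (-0.512) kept their direction. By stage the differences in Dpt (2.06), Shisa9 (-3.47) and Rarb (-0.895) kept their sign, but the intervals of their P1 maxillary ratios then included 0 (-1.001 to 0.965, -4.91 to 0.00529 and -0.944 to 0.341), as did that of Acta2 (-0.201 to 0.697).

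Among the P1 mandibular barcodes that were dropped because the P1 maxillary library held them too, 26 met the rule by their own counts, with a median of 3094 UMIs, and 22 of them were also P1 maxillary members.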

How the results depend on the processing

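Replicate numbers pair no samples, since all 4 libraries carry the number 1; the block in the tests was the library, and a fit of stage blocked on jaw, or of jaw blocked on stage, was not run. Against the rest of the mesenchyme, DESeq2 called 1629 genes higher and 1882 lower (1006 and 1222 of them shared with edgeR), dropping shared barcodes from both P1 libraries left 620 higher, and leaving out 1 library gave 387 to 590 higher and 576 to 781 lower, the lowest of both without P1 maxillary. Against Ebf2-only cells, 724 higher and 845 lower were called without a filter, 0 and 0 without the library block (the adjusted calls all went), 114 higher with at least 5000 UMIs per cell, 551 lower without shared barcodes, and 23 to 263 higher and 60 to 397 lower without 1 library, the lowest of both without E15.5 mandibular (without E15.5 maxillary 37 and 109, without P1 mandibular 49 and 157). Against Meox2-only cells, 984 higher were called without a filter, 280 higher and 261 lower without the block, 381 and 442 at 2000 UMIs, and 285 to 533 and 353 to 642 without 1 library, the lowest of both without E15.5 maxillary. The share of members was 2.01%, 8.46%, 0.770% and 5.21% at 2000 UMIs, 12.0%, 43.4%, 2.38% and 21.2% with 1 Ebf2 UMI allowed, 42.8% (E15.5 mandibular) and 2.57% (P1 maxillary) at 5000 UMIs, and 1.53% (P1 maxillary) without shared barcodes. By stage, 11 genes were lower at 2000 UMIs, and 6 higher and 7 lower without shared barcodes. The G2/M sum of the maxillary members was then higher at P1 than at E15.5. By jaw, 8 genes were higher in maxillary members without the highest Scrublet scores. At resolution 0.5, 80% of P1 mandibular members lay in 2 clusters. Log2 ratios of the P1 maxillary members without shared barcodes can rest on few UMIs and then differ slightly from those of the levels printed above. Reversed single ratios of P1 to E15.5 were those of Zfp36 (-0.27), Atf3 (-0.015), Gadd45b (-0.66) and Nr3c2 (0.065) in maxillary members without shared barcodes, and Csmd1 (-0.40) without the highest Scrublet scores. The causes were not tested. Of the 25 genes named against the rest, 25 kept their call under DESeq2, no filter, at least 5000 UMIs and doublet removal. Without the library block 6 of them lost it. With 1 library left out, 1 lost it without E15.5 mandibular, and 2 lost it without E15.5 maxillary, without P1 mandibular and without P1 maxillary. The P1 maxillary members held 1505022 UMIs in all, which limits the precision of their levels.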

Other observations

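Other kinds of cell in these libraries also held Ebf2. In the P1 maxillary molar, Ebf2 was found in 17.4% of the 1714 cells with at least 2 Epcam UMIs, at 105 CPM, against 0.768, 0.805 and 0.860 CPM in the E15.5 maxillary, E15.5 mandibular and P1 mandibular Epcam+ cells. Meox2 was at 0.126 CPM in the same P1 maxillary cells. The difference between libraries was not tested.

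Among all cells with at least 2 Ebf2 UMIs and a Meox2 UMI, Pecam1 alone kept out 350, Epcam alone 136 and Ptprc alone 25, so the endothelial marker was the commonest reason. Too few collagen UMIs kept out 15 and too high a mitochondrial percentage 43.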
